A study of Mus musculus with 12 samples.

Results

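A set of 8 genes that write, copy and oxidise methyl marks on DNA were followed in 12 mouse rhabdoid tumors, 8 of 24060 gene rows listed for each tumor. The 8 genes were taken by name, with no threshold on their levels but with earlier results of these data known: Uhrf1, Dnmt1, Dnmt3a, Dnmt3b, Dnmt3l, Tet1, Tet2 and Tet3. The mice of all 12 tumors were P0-CreC;Smarcb1flox/flox. In them the promoter of the myelin protein zero gene drives Cre, which deletes Smarcb1 in neural crest cells and their Schwann cell descendants. The labels place 4 tumors at the retro-orbital site, 3 in the cheek, 3 in the meninges, 1 on the vestibular nerve and 1 on the trigeminal nerve. Every tumor carried the same genotype, no normal tissue was among the samples, and immune and vessel cells within a tumor keep Smarcb1.

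Cytosine methylation at CpG sites is lost by dilution at each cell division unless it is copied. Uhrf1 recognises the hemimethylated CpG sites left by replication and brings Dnmt1, the maintenance methyltransferase, to them. Dnmt3a and Dnmt3b set new methyl marks, and Dnmt3l is a partner without catalytic activity that is known chiefly from germ cells. Tet1, Tet2 and Tet3 oxidise 5-methylcytosine to 5-hydroxymethylcytosine, the first step of its removal. Rhabdoid tumors are defined by the loss of Smarcb1, a core subunit of the SWI/SNF chromatin remodeller.

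The level of each gene was deposited as RPKM, fragments scaled to transcript length and to the tumor's total. Levels of different genes can be set side by side only as far as the lengths used hold. These were not given, and the lengths recovered for the 8 members matched no annotated GENCODE transcript length of their gene. The fragment totals behind the RPKM values, recovered from the steps between low values, ranged from 13206168 to 57128422. Smarcb1 itself was listed at 1.70 to 6.31 RPKM (median 4.61), lowest in the vestibular tumor, so its RNA was low but present in all 12 tumors. Leukocyte genes were present throughout: the summed RPKM of 11 markers ran from 739 in the vestibular tumor to 6329 in retro-orbital tumor 2. In whole tumors, fewer cells of a type and less RNA per cell cannot be told apart. The first parts of the tumor identifiers were shared by cheek 1 and meninges 1, by cheek 2 and cheek 3, and by retro-orbital 3 and the trigeminal tumor. The labels do not say if an identifier stands for 1 animal. All p-values take the tumors as independent, except those with an identifier block or with shared identifiers averaged.

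The maintenance pair, Dnmt1 and Uhrf1, had the highest mean levels of the 8 genes. In retro-orbital 3 Tet2, at 15.7 RPKM, stood above Uhrf1, at 9.12. Dnmt1 (chr9:20907209-20959888, minus strand, GRCm38) was measured at 32.6, 23.3, 17.1 and 47.9 RPKM in retro-orbital tumors 1 to 4, at 48.2, 37.4 and 37.4 in cheek tumors 1 to 3, at 48.6, 42.6 and 42.9 in meninges tumors 1 to 3, at 67.2 in the vestibular tumor and at 39.7 in the trigeminal tumor. Uhrf1 (chr17:56303321-56323486, plus strand) was measured at 25.7, 13.4, 9.12 and 33.2 RPKM in the retro-orbital tumors, at 35.3, 21.8 and 27.4 in the cheek tumors, at 46.0, 38.9 and 30.7 in the meninges tumors, at 68.5 in the vestibular tumor and at 29.2 in the trigeminal tumor. Both genes were lowest in retro-orbital tumor 3 and highest in the vestibular tumor. Between these extremes Uhrf1 varied 7.51-fold and Dnmt1 3.93-fold. Dnmt1 lay above 81.3% of all listed genes in the tumor where its rank was lowest and above 95.7% where it was highest, and it exceeded Uhrf1 in 11 of 12 tumors.

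**Figure D1:**
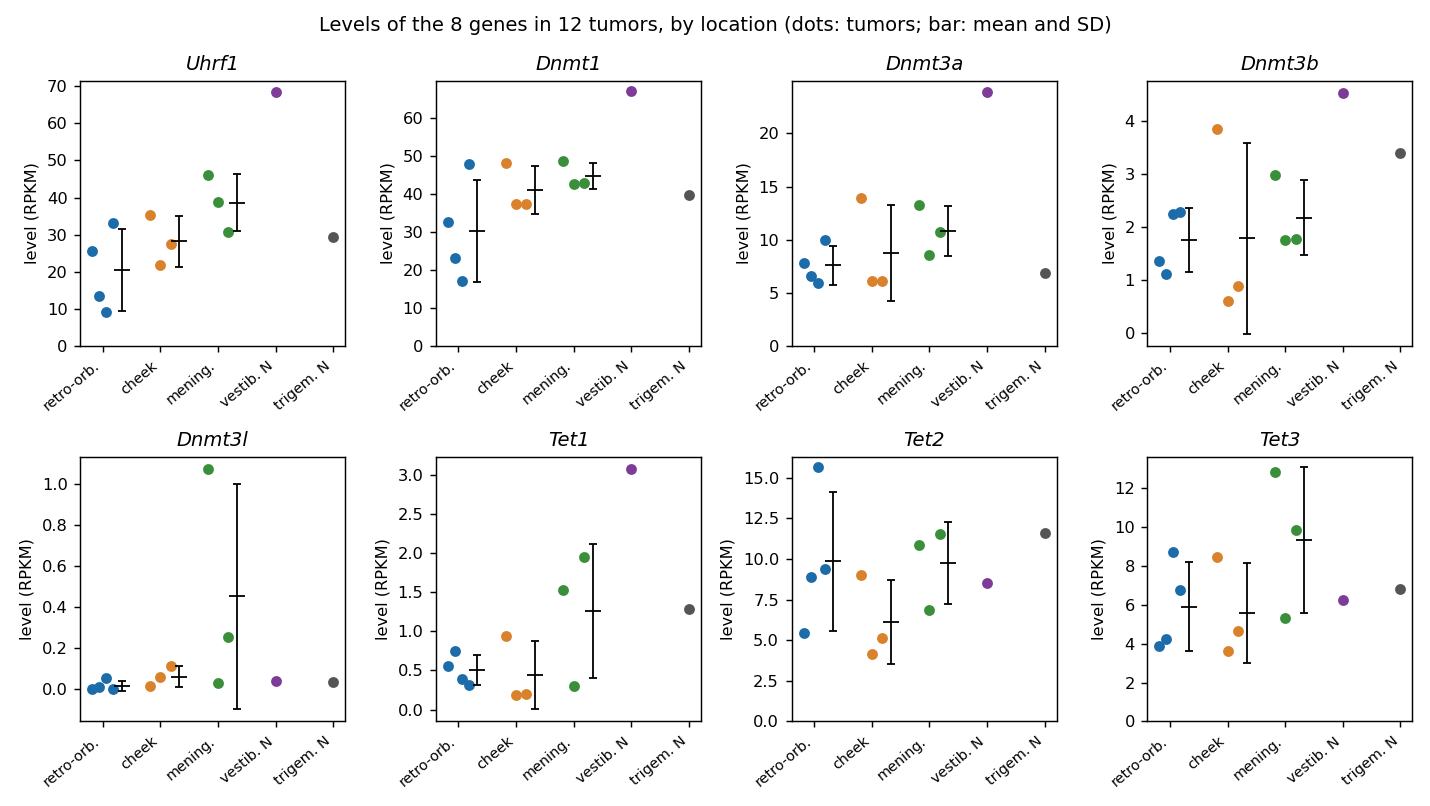
Level of each of the 8 genes (vertical axis, RPKM, a separate scale per gene) in the 12 tumors by location (horizontal axis). Dots are tumors, and the black bar beside a location with at least 3 tumors gives their mean and SD. Uhrf1 and Dnmt1 are lowest in a retro-orbital tumor and highest in the vestibular tumor, at 68.5 and 67.2 RPKM, while Dnmt3l passes 1 RPKM in 1 meninges tumor.

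The promoters of Uhrf1 and Dnmt1 are shown because these were the only members with an E2F-like motif in a promoter window. E2F factors switch on genes for DNA replication at the entry to S phase. The RefSeq promoter table (GRCm38) holds 15 windows for the 8 members, each of 250 bases before and 50 after an annotated start. The 4 motifs searched on both strands were TTTCCCGC, TTTGGCGC, TTTCGCGC and TTTGCCGC. Of all 32851 windows in the table, 2.26% hold at least 1 match, and 2 of the 15 member windows do. Below, the 250 bases before 1 of the Uhrf1 starts (chr17:56304063-56304312, plus strand) stand first, followed by 30 bases around each of the matches in the Dnmt1 window (chr9:20952824-20952853 and chr9:20952574-20952603, minus strand), all 5′ to 3′ on the gene's strand with the match in capitals. The first Dnmt1 match reads as TTTCGCGC on the other strand, and both Dnmt1 matches lie within annotated first exons of Dnmt1 transcripts.
Uhrf1: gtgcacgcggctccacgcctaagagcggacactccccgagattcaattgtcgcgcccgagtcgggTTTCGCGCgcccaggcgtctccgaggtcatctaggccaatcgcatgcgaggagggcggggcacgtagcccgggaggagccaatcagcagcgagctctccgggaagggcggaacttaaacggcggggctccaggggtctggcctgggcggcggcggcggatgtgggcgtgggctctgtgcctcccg
Dnmt1, upstream match: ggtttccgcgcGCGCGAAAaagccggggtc
Dnmt1, match after the start: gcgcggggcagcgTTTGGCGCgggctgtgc
The Uhrf1 match begins 185 bases before the start, and the Dnmt1 matches begin 219 bases before it and at base 34 after it. These are matches of letters, and binding was not measured here. The windows also differed in CpG content, against a median of 7 CpG over all windows. The Uhrf1 and Dnmt1 windows with a match each held 33 CpG, more than 91.4% of windows had. Every motif searched holds a CpG, and the background share of 2.26% was not matched for CpG content. The Tet2 window held 57 CpG, more than 99.8% of windows had, the 3 Dnmt3a windows held 18 to 47, and the 3 Dnmt3l windows held 3 to 6.

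Of the de novo methyltransferases, Dnmt3a was well above Dnmt3b. Dnmt3a (chr12:3806007-3914443, plus strand) was measured at 7.81, 6.55, 5.92 and 9.99 RPKM in the retro-orbital tumors, at 13.9, 6.10 and 6.07 in the cheek tumors, at 13.2, 8.51 and 10.7 in the meninges tumors, at 24.0 in the vestibular tumor and at 6.89 in the trigeminal tumor. The vestibular tumor stood above all others, and cheek 1, at 13.9, stood well above the other cheek tumors. Dnmt3b (chr2:153649450-153687730, plus strand) was measured at 1.36, 1.11, 2.24 and 2.29 RPKM in the retro-orbital tumors, at 3.86, 0.609 and 0.892 in the cheek tumors, at 2.99, 1.77 and 1.78 in the meninges tumors, at 4.53 in the vestibular tumor and at 3.41 in the trigeminal tumor. It passed 1 RPKM in 10 of 12 tumors, and the cheek tumors held both its lowest level and the second highest.

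Dnmt3l (chr10:78041947-78063622, plus strand) was near the limit of detection in all but a few tumors. It was listed at 0 in retro-orbital tumors 1 and 4, where a count of 0 allows a level of up to 0.0415 and 0.0273 RPKM, taken as the worth of 3 fragments. In the other tumors it rested on 1 to 79 fragments. The highest value, 1.08 RPKM in meninges 1, came from 79 fragments (exact Poisson 95% interval 0.851 to 1.34 RPKM), and the next, 0.252 RPKM in meninges 3, from 12 fragments (0.130 to 0.441). The third meninges tumor was at 0.0285 RPKM from 2 fragments. These intervals cover counting error only. The meninges tumors thus held both the highest Dnmt3l level and a level resting on 2 fragments.

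The Tet genes followed the order Tet2, Tet3, Tet1. Tet2 (chr3:133463679-133545139, minus strand) was measured at 5.42, 8.91, 15.7 and 9.35 RPKM in the retro-orbital tumors, at 9.03, 4.16 and 5.11 in the cheek tumors, at 10.8, 6.84 and 11.6 in the meninges tumors, at 8.50 in the vestibular tumor and at 11.6 in the trigeminal tumor. Its highest level was in retro-orbital tumor 3, the tumor with the lowest Uhrf1, Dnmt1 and Dnmt3a. Tet3 (chr6:83362373-83459084, minus strand) was measured at 3.87, 4.25, 8.72 and 6.78 RPKM in the retro-orbital tumors, at 8.47, 3.61 and 4.63 in the cheek tumors, at 12.8, 5.33 and 9.86 in the meninges tumors, at 6.24 in the vestibular tumor and at 6.81 in the trigeminal tumor. The highest Tet3 levels were in meninges 1 and 3, and the third meninges tumor was below the median of 6.51. Tet1 (chr10:62804570-62908996, minus strand) was measured at 0.561, 0.746, 0.393 and 0.310 RPKM in the retro-orbital tumors, at 0.947, 0.181 and 0.194 in the cheek tumors, at 1.54, 0.297 and 1.95 in the meninges tumors, at 3.08 in the vestibular tumor and at 1.29 in the trigeminal tumor. It reached 1 RPKM in 4 of 12 tumors. The lowest Tet1, Tet2 and Tet3 levels were all in cheek 2.

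Within a tumor the members kept much the same order. By mean log2 level this was Dnmt1, Uhrf1, Dnmt3a, Tet2, Tet3, Dnmt3b, Tet1 and Dnmt3l. Differences are given as log2(RPKM + 0.1), mean ± SD over 12 tumors. Dnmt1 exceeded Uhrf1 by 0.44 ± 0.29. Uhrf1 exceeded Dnmt3a by 1.62 ± 0.46, in 12 of 12 tumors. Dnmt3a and Tet2 did not differ beyond their spread, at 0.12 ± 0.73 and with Dnmt3a higher in 8 of 12 tumors. Tet2 exceeded Tet3 by 0.40 ± 0.36, in 11 of 12 tumors. Tet3 exceeded Dnmt3b by 1.66 ± 0.60 in 12 of 12 tumors. Dnmt3b exceeded Tet1 by 1.36 ± 0.81 in 11 of 12, and Tet1 exceeded Dnmt3l by 2.20 ± 1.25 in 12 of 12. With a pseudocount of 1, the difference of Dnmt3b and Tet1 was 0.74 and that of Tet1 and Dnmt3l 0.70, so the sizes at these low levels depend on the pseudocount. The order also rests on the transcript lengths used, and it was not tested.

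Dnmt1 made up most of the methyltransferase RNA in every tumor, between 67.6% and 84.7% of the RPKM summed over Dnmt1, Dnmt3a, Dnmt3b and Dnmt3l (median 77.6%). Dnmt3a gave 13.6% to 25.01%, Dnmt3b 1.38% to 8.84% and Dnmt3l 0% to 1.63%. The lowest Dnmt1 share and the highest Dnmt3b share were both in retro-orbital tumor 3, at 67.6% and 8.84%. Of the summed Tet RPKM, Tet2 gave 43.0% to 64.1% (median 53.6%), Tet3 30.6% to 50.9% and Tet1 1.58% to 17.3%. The Tet2 share was 55.0%, 64.1%, 63.2% and 56.9% in the retro-orbital tumors, 49.0%, 52.3% and 51.4% in the cheek tumors and 43.0%, 54.9% and 49.4% in the meninges tumors, so the retro-orbital values lay above those of both other locations. The trigeminal tumor, at 58.8%, fell among the retro-orbital values and the vestibular tumor, at 47.7%, did not. This pattern was noticed in the values and was not tested.

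**Figure D2:**
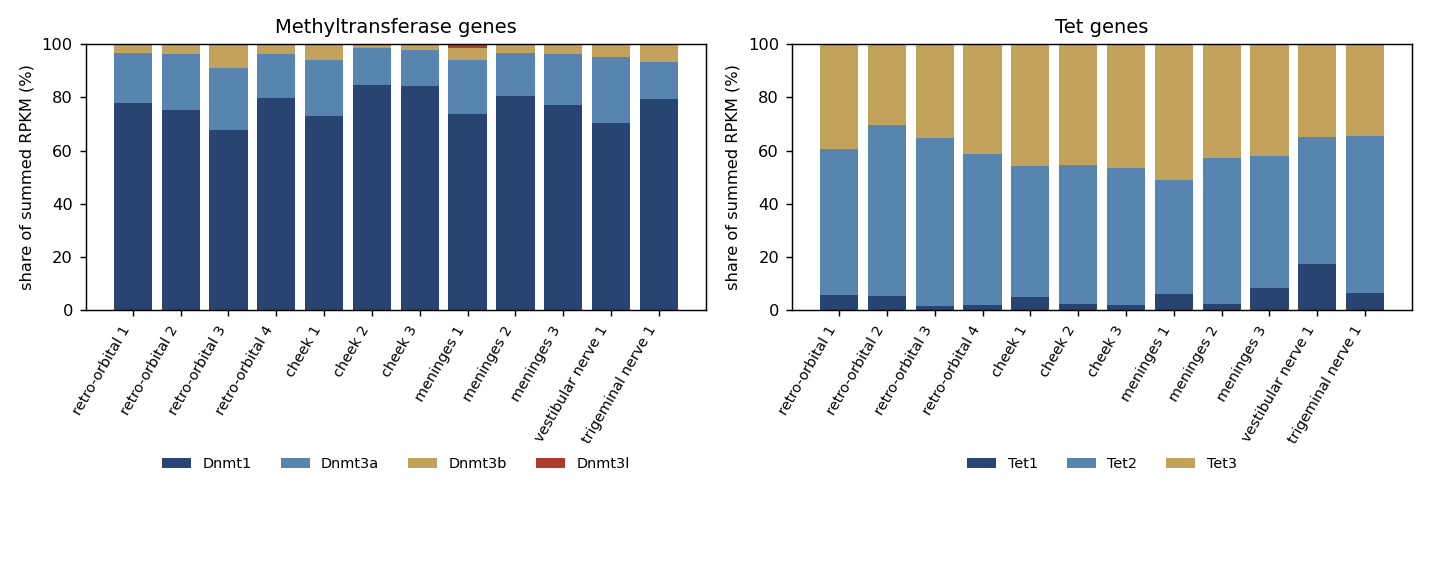
Share of each methyltransferase gene (left) and each Tet gene (right) in the RPKM summed over its class (vertical axis, %) in the 12 tumors (horizontal axis). Dnmt1 fills 67.6% to 84.7% of every left bar, and Tet2 lies between 43.0% and 64.1% on the right, with the largest Tet1 share, 17.3%, in the vestibular tumor.

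The comparison of locations asks whether the methylation machinery differed with the place where a tumor arose. No member passed the test. The fit took the 10 tumors of the retro-orbital, cheek and meninges groups on the scale log2(RPKM + 1), which understates changes of genes with low levels. It covered 14745 genes that reached 1 RPKM in at least 3 of these tumors. Of the 8 members, 6 were among them, and Dnmt3l and Tet1 were not. The F test over the 3 locations called 6 genes (0.0407% of those tested) at an adjusted p under 0.05 and 0 of the 6 members. At an unadjusted p under 0.05, 2110 genes passed and again 0 members. Adjusted p-values of the limma F test were 0.377 for Uhrf1, 0.423 for Dnmt1, 0.607 for Dnmt3a, 0.839 for Dnmt3b, 0.513 for Tet2 and 0.540 for Tet3. Exact permutation of the 4200 possible labellings, with no adjustment, gave p = 0.115 for Uhrf1, 0.133 for Dnmt1, 0.0529 for Dnmt3l, 0.228 for Tet1 and 0.280 to 0.706 for the other members.

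Between single locations, the widest difference was that of Uhrf1 between meninges and retro-orbital tumors. Uhrf1 averaged 38.5 ± 7.69 RPKM (SD, n = 3) in the meninges and 20.4 ± 11.1 (n = 4) at the retro-orbital site. The log2 difference was 1.03 (SE 0.40, 95% interval 0.14 to 1.92), with an adjusted p of 0.522. The ranges overlapped, since retro-orbital tumor 4, at 33.2 RPKM, exceeded meninges 3, at 30.7. In the same comparison Dnmt1 differed by 0.65 (interval -0.02 to 1.32, adjusted p = 0.553), Tet3 by 0.57 (interval -0.28 to 1.41, adjusted p = 0.637) and Dnmt3a by 0.47 (interval -0.22 to 1.15, adjusted p = 0.635). Dnmt3b and Tet2 differed by 0.21 and 0.04. All 6 members tested had positive differences there, with a median of 0.52 against 0.13 over all genes tested, and 3 genes (0.0203%) were called.

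Cheek tumors set against retro-orbital tumors gave log2 differences of both signs. They were 0.58 for Uhrf1, 0.52 for Dnmt1, 0.11 for Dnmt3a, -0.14 for Dnmt3b, -0.08 for Tet3 and -0.59 for Tet2 (interval -1.39 to 0.21, adjusted p = 0.531). The median over the 6 members was 0.01 against -0.02 over all genes, and 4 genes (0.0271%) were called. Meninges tumors set against cheek tumors gave differences between 0.13 for Dnmt1 and 0.65 for Tet3 (interval -0.25 to 1.55, adjusted p = 0.427), with Tet2 at 0.63 (interval -0.22 to 1.48, adjusted p = 0.416). The median was 0.40 against 0.16 over all genes, and 7 genes (0.0475%) were called. These comparisons share tumors. The genes called against the retro-orbital tumors, named after their values were seen, were Irs4, Mab21l2, Slc22a17 and Col3a1 in the cheek and Hoxd10, Hoxd11 and Thbs4 in the meninges, none of them a methylation gene. For each of the 6 members, at least 1 of these 3 intervals reached a difference of 1 or more in size on the log2 scale.

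**Figure D3:**
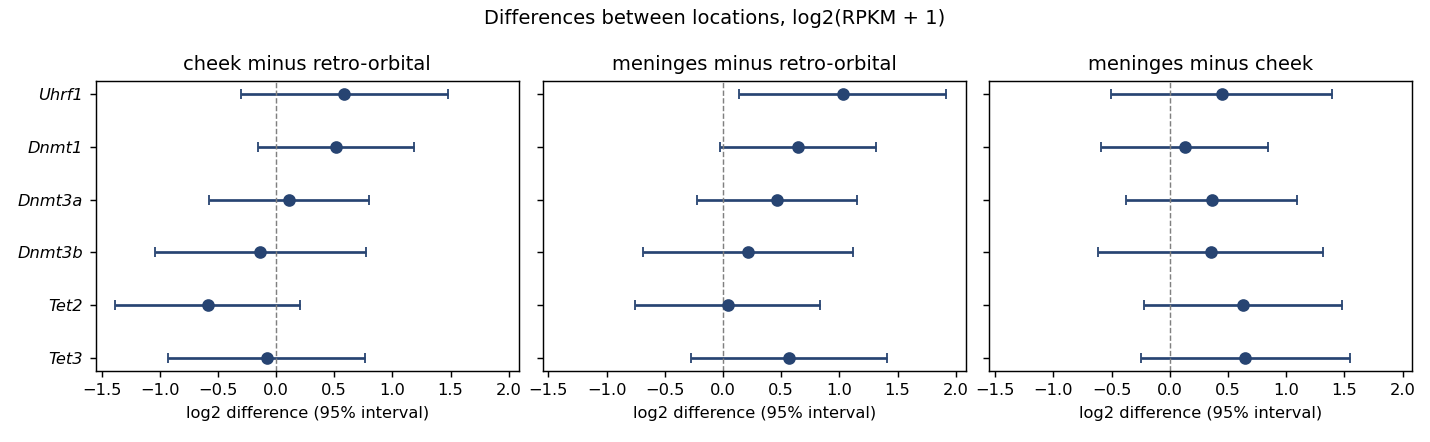
Log2 differences in log2(RPKM + 1) (horizontal axis) of the 6 members tested (vertical axis) for each pair of locations, from the limma fit of 10 tumors, with 95% intervals. The Uhrf1 interval between meninges and retro-orbital tumors, 0.14 to 1.92, is the only 1 that leaves out 0, before adjustment over all genes.

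Marker genes of other cell types had wide ranges within and between locations, and 0 of 5 glia, 6 skeletal muscle and 9 leukocyte markers tested were called in the limma F test (3, 0 and 3 at an unadjusted p under 0.05). The summed RPKM of 6 glia markers was 120 to 394 in the meninges tumors, 9.87 to 21.6 in the cheek tumors and 2.99 to 263 in the retro-orbital tumors. That of 6 skeletal muscle markers was 31.4 to 533 in the cheek tumors, 5.01 to 283 in the meninges tumors and 8.86 to 200.3 in the retro-orbital tumors. Leukocyte markers summed to 1100 to 6329 RPKM in the retro-orbital tumors, 831 to 1583 in the cheek tumors and 1126 to 2438 in the meninges tumors. At least 8 of the 11 leukocyte markers reached 1 RPKM in every tumor. Among the glia markers this number was 1 to 3 of 6 in the cheek and 5 or 6 of 6 in the meninges. The part of these cells in the members' levels was not tested.

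Dnmt1 and Uhrf1 followed the RNA of cell division genes closely across the tumors. For those genes, a proliferation score was taken as the mean log2(RPKM + 1) of 28 genes, 14 of S phase and 14 of M phase, with no member among them. It reads RNA and not division itself. The score was 4.24, 3.996, 3.36 and 4.57 in the retro-orbital tumors, 4.67, 4.49 and 4.54 in the cheek tumors, 4.83, 4.79 and 4.39 in the meninges tumors, 5.22 in the vestibular tumor and 4.45 in the trigeminal tumor. It was thus lowest and highest in the same tumors as Uhrf1 and Dnmt1. Over the 12 tumors Uhrf1 had a Pearson r of 0.963 with the score (permutation p = 2e-05, adjusted p = 0.0107) and a Spearman rho of 0.916 (permutation p = 0.00014). Dnmt1 had an r of 0.961 (permutation p = 5e-05, adjusted p = 0.0134) and a rho of 0.874 (permutation p = 0.00046). Without retro-orbital 3 and the vestibular tumor, the pair farthest from the median score, r was 0.901 for Uhrf1 and 0.877 for Dnmt1.

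Of 15012 genes tested against the score, 2.76% were called, 2.6% with a positive r, and 2 of the 7 members tested were called, both positive. The other members did not pass: r was 0.715 for Dnmt3a (permutation p = 0.0116, adjusted p = 0.128), 0.428 for Tet1, 0.373 for Dnmt3b, 0.060 for Tet3 and -0.338 for Tet2, with adjusted permutation p-values of 0.467 to 0.953. The Dnmt3a value fell to 0.539 without the pair of tumors named above. The Tet2 value rested on retro-orbital tumor 3, without which it was 0.099. Whether r differs between members was not tested.

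Within locations the Uhrf1 call with the score was kept and that of Dnmt1 was lost. After each location's mean was taken away from the 10 tumors of the 3 larger groups, r was 0.939 for Uhrf1 (adjusted permutation p = 0.0208) and 0.914 for Dnmt1 (adjusted permutation p = 0.0515). This permutation shuffled all 10 residuals freely and made no allowance for the 3 means taken away, so these p-values can be too small. When tumors with a shared identifier were averaged, leaving 9 values, r was 0.960 (adjusted permutation p = 0.0406) and 0.944 (adjusted permutation p = 0.0541), so that here too Dnmt1 did not pass. The Uhrf1 call was kept without any single tumor. That of Dnmt1 was also lost without retro-orbital 3 (r = 0.924, adjusted permutation p = 0.0508) and without the vestibular tumor (r = 0.949, adjusted permutation p = 0.0608). With the score as a covariate in the fit of locations, the Uhrf1 difference between meninges and retro-orbital tumors went from 1.03 to 0.10 (adjusted p = 0.945 by limma). The Uhrf1 difference between cheek and retro-orbital tumors went from 0.58 to -0.20 and that of Dnmt1 between meninges and retro-orbital tumors from 0.65 to -0.02. Both genes followed the score closely within locations (r = 0.939 and 0.914), so adjusting for it removes most of what they share with it. The adjusted differences therefore cannot show what part proliferation had in the unadjusted ones, and that part was not tested. Of 9 leukocyte markers tested, 0 were called with the score and their median r was -0.33. The part of these cells was not tested.

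**Figure D4:**
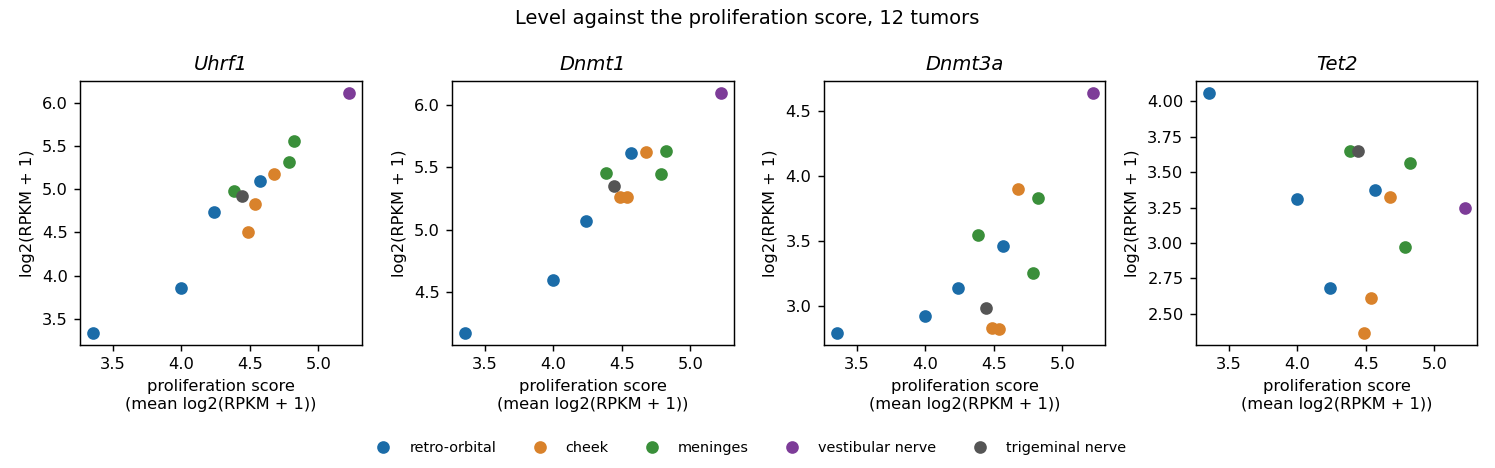
Level as log2(RPKM + 1) (vertical axes, a separate scale per gene) of Uhrf1, Dnmt1, Dnmt3a and Tet2 against the proliferation score (horizontal axes, mean log2(RPKM + 1) of 28 S and M phase genes), with 1 point per tumor coloured by location. Uhrf1 and Dnmt1 rise with the score (r = 0.963 and 0.961), Dnmt3a is looser (0.715) and Tet2 shows no rise (-0.338).

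Set against each other, the members gave 2 called pairs of 21. Each member's r was tested against 15039 other genes, and a pair was taken as called where the adjusted p passed from both sides. Uhrf1 and Dnmt1 had an r of 0.972 (permutation p = 1e-05, the smallest these resamples can give, adjusted p = 0.00734 and 0.0131), a rho of 0.951 (permutation p = 2e-05) and an r of 0.920 without the tumors farthest from the median of Uhrf1. Uhrf1 and Dnmt3a had an r of 0.799 (permutation p = 0.00177, adjusted p = 0.0437 and 0.0439) and a rho of 0.874 (permutation p = 0.00041). The Uhrf1 and Dnmt1 pair was called without any single tumor. The Uhrf1 and Dnmt3a pair fell to 0.698 without the same pair of tumors, and its adjusted permutation p was 0.209 without the vestibular tumor. That call was lost in 9 of the 12 fits that left out a single tumor. Tet2 and Tet3 had an r of 0.789 (adjusted permutation p = 0.0705 and 0.0651) and a rho of 0.846, and Dnmt3a and Dnmt3b an r of 0.744 (adjusted permutation p = 0.0614 and 0.0683). With location means taken away from the 10 tumors, the calls changed. Uhrf1 and Dnmt3a were no longer called (r = 0.666, adjusted permutation p = 0.221), while Tet2 and Tet3 (r = 0.900, adjusted permutation p = 0.0258) and Dnmt3b and Tet3 (r = 0.819, adjusted permutation p = 0.0469) were. Uhrf1 and Dnmt1 were called there too (r = 0.957, adjusted permutation p = 0.0293). As with the score, the permutation p-values after this step made no allowance for the means taken away and can be too small. Tet2 had r values near 0 with the maintenance pair, -0.169 with Uhrf1 and -0.203 with Dnmt1.

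**Figure D5:**
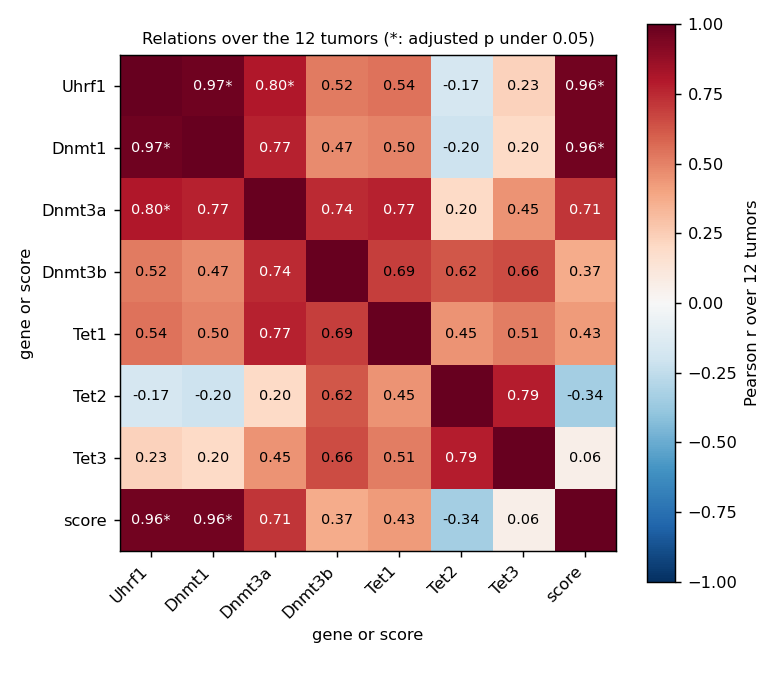
Pearson r over the 12 tumors between the 7 members that reached 1 RPKM in at least 3 tumors, and with the proliferation score. Asterisks mark adjusted p under 0.05, which holds for Uhrf1 with Dnmt1 (0.97), Uhrf1 with Dnmt3a (0.80), and Uhrf1 and Dnmt1 with the score (0.96 each).

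The shares of all genes called in these tests set the background: 4.58% of genes for Uhrf1, 3.18% for Dnmt1, 5.25% for Dnmt3a, 4.75% for Dnmt3b, 1.14% for Tet2, 2.71% for Tet3 and 0% for Tet1. For Tet1, 2652 genes passed at an unadjusted permutation p under 0.05. The genes most like Uhrf1 were 2810417H13Rik (r = 0.977), listed in RefSeq as Pclaf, a factor that binds the replication clamp PCNA, Ccnf (r = 0.977), which codes for cyclin F, and Rad54b (r = 0.973), a recombination gene. Those most like Dnmt1 were 2810417H13Rik (r = 0.989), Rad54b (r = 0.974) and Uhrf1 itself (r = 0.972). For Dnmt3a they were the long non-coding RNA 2700046G09Rik (r = 0.966), Dcaf12 (r = 0.956) and 2310045N01Rik (r = 0.956), and for Dnmt3b Cdc73 (r = 0.985), a subunit of the transcription elongation complex PAF, Ndufs6 (r = 0.976), a subunit of respiratory complex I, and Mdh1 (r = 0.969), a malate dehydrogenase. Tet2 was most like Scamp5 (r = 0.973), a secretory vesicle gene, Asap2 (r = 0.935) and Tom1 (r = 0.923). Tet3 was most like the calcium sensor gene Stim1 (r = 0.970), Cds1 (r = 0.960) and Ppp1r1a (r = 0.947). Tet1 was most like Map2k6 (r = 0.949), 6430571L13Rik (r = 0.942) and Fut2 (r = 0.939), each with an adjusted permutation p of 0.0752. No gene was on the lists of both a maintenance gene and a Tet gene. Each list held only 3 genes of 15039, so this says little about how these members relate, and overlap was not tested. All r values were over the same 12 tumors, and the genes named were chosen for being the highest of 15039.

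The partners of the maintenance machinery were all measured above 1 RPKM. The 9 listed genes reached it in 12 of 12 tumors. Their levels ran from Pcna, the replication clamp, at 38.4 to 109.6 RPKM, down to Cdca7l, at 4.10 to 19.5 RPKM. Pcna belongs to the score, and of the 8 others 2 were called with it, both positive, where 2.6% of all genes were: Lig1, the ligase of lagging-strand synthesis (r = 0.883, adjusted permutation p = 0.0395), and Hells, a remodeller needed for DNA methylation (r = 0.798, adjusted permutation p = 0.0496). By rank both relations were looser, with a Spearman rho of 0.685 for Lig1 and 0.706 for Hells. Lig1 stood at 77.2 RPKM in the vestibular tumor, against a median of 20.8. Lig1 and Hells, and the genes below that are named for a p-value or a call, were named after their values were seen. Whether the calls of these partner genes hold without a single tumor is not reported here. The median r of the 8 was 0.68, against 0.12 over all genes. The list also holds Paf1, a transcription elongation subunit that is no known partner of Dnmt1 (r = 0.722, adjusted permutation p = 0.101).

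Among the partners of de novo methylation and heterochromatin, Trim28, the corepressor of KRAB zinc finger proteins, was highest at 47.2 to 144.9 RPKM and the oocyte gene Dppa3 lowest at 0 to 1.03. Of 11 tested, 1 was called with the score, again beside 2.6% of all genes with a positive r. This was Cbx5, which codes for heterochromatin protein 1 alpha (r = 0.893, adjusted permutation p = 0.0214, rho 0.909). The median r was 0.61. Among the 8 genes listed as methyl-CpG readers, Mbd2 was highest at 46.0 to 70.1 RPKM. The list was drawn up by name, and binding of its genes to methylated CpG, that of Mbd3 among them, was not measured. None of the genes on it was called with the score (0 of 8). At an unadjusted permutation p under 0.05, 2 passed, Mbd3 (r = 0.703) and Mbd4 (r = 0.769), and the median r of the list was 0.03.

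Genes that act after Tet oxidation included 2 called with the score of 12 tested, both positive, beside 2.6% of all genes. These were Neil3, a DNA glycosylase (r = 0.900, adjusted permutation p = 0.0226), and Xrcc1, a scaffold of base excision repair (r = 0.836, adjusted permutation p = 0.0326). By rank Neil3 was looser, with a rho of 0.636, while Xrcc1 had a rho of 0.853. The median r of this list was 0.42. Tdg, the glycosylase that removes the oxidised bases, was the lowest of the list at 0.234 to 1.49 RPKM, and Gadd45b the highest at 13.5 to 54.9. Only unique alignments were counted, so reads that match several places in the genome were left out. Whether this lowered the Tdg values was not tested. Of the Tet partners, Ogt, a glycosyltransferase that binds Tet proteins, was highest at 17.9 to 69.9 RPKM and Wt1 lowest at 0 to 0.351. Of the enzymes for the methyl donor and the Tet cofactor, Mat2a, which makes S-adenosylmethionine, was highest at 26.8 to 83.9 RPKM, while Mat1a, its liver form, was at 0 to 0.322. Of 6 Tet partners and 15 enzymes tested, 0 were called with the score. At an unadjusted permutation p under 0.05, 1 Tet partner passed, Vprbp (r = 0.803), and the enzymes that passed included Shmt2 (r = 0.766) and Mat2a (r = 0.722).

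Of 60 genes of these 6 partner lists tested by limma, 0 were called between locations in the F test or in any pair of locations, and 7 had an unadjusted p under 0.05 in the F test, beside 2110 of all 14745 genes. The lowest adjusted p of the limma F test among them was 0.141, for Gadd45a, a stress gene that was 1.93 lower in cheek and 1.65 lower in meninges than in retro-orbital tumors on the log2 scale. For the maintenance partners the median difference between meninges and retro-orbital tumors was 0.39, and 8 of 9 differences were positive, against a median of 0.13 over all genes.

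Germline genes whose promoters are known to be silenced by methylation in somatic tissue were mostly low, with up to 8 of the 20 at 0 in a tumor. Of 20 listed, 2 to 5 reached 1 RPKM in a tumor. The highest by mean was Stag3, a meiotic cohesin subunit, at 0.466 to 8.45 RPKM, and Sycp3, of the synaptonemal complex, reached 1 RPKM in 12 of 12 tumors at 1.09 to 3.20. The piRNA gene Mael was lowest, at 0 to 0.0727 RPKM. The summed level of the list was 9.26 to 10.8 RPKM in the retro-orbital tumors, 4.82 to 8.30 in the cheek tumors, 12.5 to 15.9 in the meninges tumors, 9.16 in the vestibular tumor and 19.09 in the trigeminal tumor. By the mean log2(RPKM + 1) of the list meninges 1, at 0.457, lay within the retro-orbital range of 0.432 to 0.475. The sums were not tested, and 0 of the 4 genes that passed the filter were called between locations by limma (1 at an unadjusted p under 0.05). DNA methylation was not measured in these tumors.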

How the data were processed

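Total RNA of 12 frozen tumors was depleted of ribosomal RNA and sequenced as stranded paired-end libraries. Per the study's methods, the authors used STAR for alignment (mm10), and HTSeq 0.6.0 then counted unique alignments per RefSeq gene. The values deposited by the authors are RPKM per gene, and the transcript lengths and totals behind them are not given in the sources used here. Date-corrupted gene names (27 rows) were not named.

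Locations were compared with limma 3.58.1 in R 4.3.3 (trend, robust) on log2(RPKM + 1), for genes that reached 1 RPKM in 3 or more of the fitted tumors, with Benjamini-Hochberg adjustment and a threshold of 0.05. Relations across the 12 tumors used two-sided permutation tests with 100000 resamples, adjusted over all genes tested. Fragment totals were recovered from genes with a single annotated transcript length, as the total at which many low values were worth 1 fragment. Member lengths and fragment counts were then taken where the values of all tumors were whole multiples of 1 fragment within 0.03. The recovery of fragment totals, the limma contrast of cheek and retro-orbital tumors and the correlation test over 12 tumors were tested on simulated data. The alternative settings and the exact permutation of locations were not. Python 3.11.15 with numpy 2.4.6, scipy 1.17.1 and pandas 2.3.3 was used.

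Members and lists were chosen with earlier results of these data known. Named were all members, each list's called genes or else its highest and lowest by mean, and the 3 genes nearest to each member. Some genes that this rule or the tests pick out are not reported here. Alternatives were pseudocounts, filters, quantile normalization, the prior variance, an identifier block, the score as covariate or in other forms, ranks, location residuals, single tumors left out and, chosen after seeing the data, averaging of tumors that share an identifier.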

Additional observations from a re-analysis of the deposited data

Results flagged for a closer look

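Of 16 measures screened in the 4 retro-orbital tumors, 1 had a tumor far from the others. The share of Dnmt3b in the methyltransferase RPKM was 8.84% in retro-orbital 3 and 3.25%, 3.59% and 3.80% in the others, a gap of 0.902 of the group's range against a critical value of 0.829. Chance flags about 1 in 20 groups. Dnmt3b itself, at 2.24 RPKM, was close to retro-orbital 4, at 2.29 RPKM, while Dnmt1 was the lowest of the 12 tumors there.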

How the results depend on the processing

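No member was called between locations in any of 392 alternative tests, each of a member in the F test or in a pair of locations. Many of these tests came from the same fit and share tumors. The lowest adjusted p was 0.0530 by limma, for Tet3 in meninges against cheek with the identifier block. Counts of called genes were unstable. The F test, at 6 genes, gave 10 without a filter, 19 with a constant prior variance, 2802 with the identifier block, 1 with the score as covariate and 0 to 198 with a tumor left out (198 without cheek 1). Cheek against retro-orbital, at 4, gave 2, 2 and 1 without a filter, with the block and with the covariate, and 0 to 147 with a tumor left out. Meninges against retro-orbital, at 3, gave 7 without a filter, 6 with a constant prior, 0 with the covariate and 0 to 41 with a tumor left out. Meninges against cheek, at 7, gave 2 with a pseudocount of 0.1, 18 without a filter, 13 with quantile normalization, 22 with a constant prior, 4243 with the block, 12 with the covariate and 0 to 527 with a tumor left out. The block's correlation of 0.93 rested on 4 tumors. No paired analysis was possible because replicate numbers only follow accession order and 1 identifier alone (cheek 1 and meninges 1) joins groups compared here.

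Member differences that changed sign, none called, were as follows. With the covariate, cheek against retro-orbital gave -0.20 for Uhrf1, -0.0381 for Dnmt1, -0.20 for Dnmt3a and 0.0678 for Tet3, and meninges against retro-orbital -0.0153 for Dnmt1. With the block, Dnmt3b gave 0.17, -0.0421 and -0.21 in the 3 comparisons, Tet2 -0.11 in meninges against retro-orbital and Dnmt3a -0.0248 in meninges against cheek. With quantile normalization, Tet3 gave 0.0293 in cheek against retro-orbital, Dnmt3b -0.0353 and -0.0312 in meninges against retro-orbital and cheek, and Tet2 -0.0948 in meninges against retro-orbital. With a tumor left out, cheek against retro-orbital ranged from -0.25 to 0.29 for Dnmt3a, -0.63 to 0.17 for Dnmt3b and -0.38 to 0.14 for Tet3, and meninges against retro-orbital from -0.19 to 0.27 for Tet2.

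Genes called with the score, 415, fell to 208 with M phase genes alone, 22 with Mki67 alone, 217 without a filter, 118 with quantile normalization, 77 by Spearman rho and 53 with shared identifiers averaged, and ranged from 40 to 493 with a tumor left out (40 without the vestibular tumor). The Uhrf1 call was kept in all these alternatives. That of Dnmt1 was also lost with Mki67 alone and by Spearman rho (adjusted permutation p = 0.0625 and 0.0595), beside the losses given above. Tet3 against the score gave -0.0899 with quantile normalization, -0.20 within locations and -0.10 to 0.39 with a tumor left out, and Tet2 -0.42 to 0.10, with -0.56 after quantile normalization. Without the vestibular tumor, Tet1 fell to 0.146 and Dnmt3b to 0.160 (highest 0.627 with a tumor left out). Called pairs, 2, became 1 with quantile normalization or averaged identifiers and 1 to 3 with a tumor left out. They became 3 with location residuals, with other pairs called as given above, and 3 by Spearman rho, which added Dnmt1 and Dnmt3a (adjusted permutation p = 0.0239). Tet2 gave rho values of 0.028 with Uhrf1 and 0.10 with Dnmt1, ranges of -0.31 to 0.28 and -0.27 to 0.27 with a tumor left out, and r = -0.11 with Dnmt3a after quantile normalization. Dnmt3a minus Tet2 ranged from -0.00502 (without the vestibular tumor) to 0.26. The cause of these changes was not tested. Depth limits Dnmt3l, which rested on 0 to 79 fragments in a tumor. Tet1 and Dnmt3b rested on at least 36 and 51 fragments in every tumor, with wider counting error where fragments were few.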
